A study of Mus musculus with 4 samples.

Results

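The macrophage growth factor axis and the MHC class II genes were followed over the cell lineages of the juvenile right ventricle (RV). They are 8 genes, chosen by their symbols among the 27998 genes of the files: the ligands Csf1 and Il34, their shared receptor Csf1r, the MHC II transactivator Ciita, the invariant chain Cd74, and the class II chains H2-Aa, H2-Ab1 and H2-Eb1. All 8 were found, and each was detected in every library. Nuclei came from the RVs of wild-type C57/BL6J mice at P21, after sham surgery or after right ventricular volume overload (RVVO) made by an abdominal aorta to inferior vena cava fistula at P7. There were 2 sham libraries and 2 RVVO libraries, and values are listed below in the order sham 1, sham 2, RVVO 1, RVVO 2. The labels and methods do not say whether a library was 1 mouse or a pool, so the spread between libraries may be partly technical.

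Csf1 and Il34 encode the secreted ligands of CSF1R, a receptor tyrosine kinase on which the survival and growth of most tissue macrophages depend. Macrophages, dendritic cells and B cells carry MHC class II, which shows peptides to CD4+ T cells. The class II genes and Cd74, whose product guards the peptide groove during assembly, are switched on by CIITA, a coactivator that is itself induced by interferon gamma. CIITA binds no DNA. It is held at class II promoters by factors on short elements named the X and Y boxes.

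The class II genes lie together on chromosome 17 of GRCm38, H2-Ab1 at chr17:34257689-34269419, H2-Aa at chr17:34282744-34287823 and H2-Eb1 at chr17:34305867-34316674. Ciita is at chr16:10480059-10528418, Csf1 at chr3:107741048-107760469 and Il34 at chr8:110741829-110805924. RefSeq promoters (GRCm38.p6) were matched for 3 of the 8 genes. The 250 bases before the start sites of H2-Aa and H2-Eb1 are shown because both class II chains were highest in the same 3 classes described below, and capitals mark CTGATTGG, the core of a Y box. The first is chr17:34287824-34288073 on the minus strand and the second chr17:34305617-34305866 on the plus strand, both written 5′ to 3′.
H2-Aa: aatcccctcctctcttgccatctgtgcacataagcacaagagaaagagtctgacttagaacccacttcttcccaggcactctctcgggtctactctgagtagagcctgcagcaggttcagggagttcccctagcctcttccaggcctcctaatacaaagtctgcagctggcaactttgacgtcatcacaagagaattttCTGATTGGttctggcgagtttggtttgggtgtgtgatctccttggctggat
H2-Eb1: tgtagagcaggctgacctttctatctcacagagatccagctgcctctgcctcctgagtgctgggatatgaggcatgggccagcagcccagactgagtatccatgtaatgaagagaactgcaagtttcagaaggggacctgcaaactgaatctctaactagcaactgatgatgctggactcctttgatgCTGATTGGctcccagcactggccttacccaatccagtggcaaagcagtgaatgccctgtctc

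The capitals end 43 bases before the H2-Aa start site and 54 bases before that of H2-Eb1. CTGATTGG, read on both strands, occurs in 3.83% of the 32851 RefSeq promoter windows of this length and was not found in that of Csf1. It contains the shorter forms GATTGG and ATTGG, which occur in 14.6% and 33.8% of the windows. Of 3 letter strings looked for as X box parts, TGACGTCA (1.55% of windows) was found for H2-Aa and TAGCAAC (3.16%) for H2-Eb1. A longer X box string was found in 1 window and in none of these genes. The strings were chosen with these sequences in view, and a match of letters is a description and not a bound site.

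After filters, 43202 nuclei of 53090 barcodes were kept, 11433, 12816, 7679 and 11274 per library, in 43 clusters. The libraries held 51010039 to 64739206 UMIs, and the median barcode had 2262 to 4705 UMIs, more in the RVVO libraries. Clusters were named from marker lists without the 8 genes, and 10 classes had at least 20 nuclei in every library: cardiomyocytes (CM), blood vessel endothelium (EC), endocardial and lymphatic EC, fibroblasts, epicardial cells, pericytes, smooth muscle, glia and macrophages. B cells (104 nuclei), T and NK cells (94) and a cluster of 82 nuclei with monocyte and neutrophil genes, here called other myeloid, were smaller. 6435 nuclei stayed unnamed, where a cluster scored low for its own lineage or carried markers of another, among them 6 clusters of 1453 nuclei that scored highest for macrophages. Names were rebuilt here and may differ from the study's. All 11 macrophage, 8 pericyte, 7 epicardial and 6 B cell markers were higher in their own class than in all other named nuclei pooled. For smooth muscle 5 of 6 were. The same markers had named the clusters, so this outcome was close to fixed in advance. Xist was at 1476 and 1485 CPM (UMIs scaled to a common library total) in the sham libraries and at 0.824 and 0.625 in the RVVO libraries, and Uty, a Y-linked gene, at 0.101, 0.0259, 322 and 316 CPM, so sex and surgery cannot be told apart. Between 28 and 70 barcodes were shared by any 2 libraries, at most 0.54% of the smaller. The levels below are CPM of the UMIs summed over the nuclei of a class, and their intervals and floors cover counting error only.

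Epicardial cells and fibroblasts had the highest Csf1 levels of the 10 classes. In epicardial nuclei Csf1 was at 87.8, 74.9, 98.9 and 91.4 CPM, and in fibroblasts at 59.5, 59.0, 74.7 and 69.6 CPM. The epicardial level was above the fibroblast level in 4 of 4 libraries, by a mean log2 ratio of 0.42 (exact two-sided sign-flip permutation test over 4 libraries, p = 0.13, the smallest it can give). With no doublet removal the ratio was 0.16, and when nuclei were named singly by their own scores it was 0.20 (exact sign-flip permutation test, p = 0.25). A p above the smallest means that, with nuclei named singly, the epicardial level was not the higher in every library. Both the size of this gap and its order within a library thus moved with how nuclei were named. Endocardial EC (40.8 ± 14.0 CPM, SD, n = 4), glia (38.3 ± 3.38), EC (35.2 ± 6.02) and smooth muscle (35.1 ± 10.6) followed with overlapping ranges. CM had 26.3 ± 4.39 CPM and pericytes 23.4 ± 5.31. Macrophages, the cells that read this ligand, had 16.4 ± 8.40 CPM and lymphatic EC 10.7 ± 5.26.

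Csf1 was spread over many classes, and the class with the highest level did not hold most of its UMIs. CM held 29.8%, 28.6%, 32.5% and 37.9% of the Csf1 UMIs of the 4 libraries, and were 19.7%, 20.9%, 34.6% and 39.2% of the nuclei kept. An unnamed cluster that scored highest for CM held 1340, 1129, 150 and 204 nuclei, so the CM shares depend on naming. Fibroblasts held 11.5% to 23.0%, EC 7.28% to 23.8% and epicardial cells 2.12% to 7.90%. Unnamed nuclei held 9.44% to 32.5%. At a fixed depth of 1000 UMIs a Csf1 UMI was found in 7.36% to 8.83% of epicardial nuclei, 5.46% to 6.98% of fibroblasts and 0.50% to 2.07% of macrophages. The median UMIs per nucleus of these classes in sham 1 were 3347, 2321 and 1952. The genes whose levels were most like Csf1 over the 40 sums of 10 classes and 4 libraries, among 9894 genes, were Cd248 (Pearson r = 0.78), Ptgis, Gpx8, Loxl1 and Rcn1 (0.71 to 0.73), as a description over sums that share libraries.

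Il34 had a narrower pattern, led by the mural cells, pericytes and smooth muscle. Pericytes, which wrap capillaries, had Il34 at 634, 760, 768 and 709 CPM, a spread of 61.8 (SD, n = 4) about a mean of 718. Smooth muscle had 273, 344, 304 and 180 CPM. Pericytes exceeded smooth muscle in 4 of 4 libraries, by a mean log2 ratio of 1.42 (exact sign-flip permutation test, p = 0.13). With no doublet removal the ratio fell to 0.37, with means of 406 and 315 CPM. Glia came next at 72.4 ± 28.2 CPM, and of the other 7 classes endocardial EC had the highest mean, 17.9 CPM. Fibroblasts, EC and CM had means of 6.16, 3.89 and 1.60 CPM. Of pericyte nuclei at 1000 UMIs, 41.1% to 47.1% had an Il34 UMI, against 0.32% to 0.45% of EC and 0.09% to 0.23% of CM. Median UMIs of the 3 classes in sham 1 were 2072, 1806 and 5326.

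Pericytes held 35.7%, 65.0%, 33.5% and 33.5% of all Il34 UMIs, and smooth muscle 2.40% to 7.89%. Unnamed nuclei held 50.7%, 18.1%, 57.8% and 50.7%, and 1861 of their 3806 Il34 UMIs lay in a pair of clusters whose best score was for pericytes but which also carried EC or fibroblast markers. A further 1500 lay in the 6 unnamed clusters that scored highest for macrophages. Each of these also scored for CM, EC, fibroblasts or pericytes, in cluster 37 at 2.51 for pericytes beside 2.96 for macrophages. The class their UMIs came from was therefore not settled, and named macrophages had a mean Il34 level of 15.5 CPM. The genes most like Il34 over the 40 sums were Lin7a (r = 0.90), Rasl12, Pde8b, A830082K12Rik and Cyp7b1 (0.89 each). The levels of both ligands by class and library are plotted next.

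**Figure D1:**
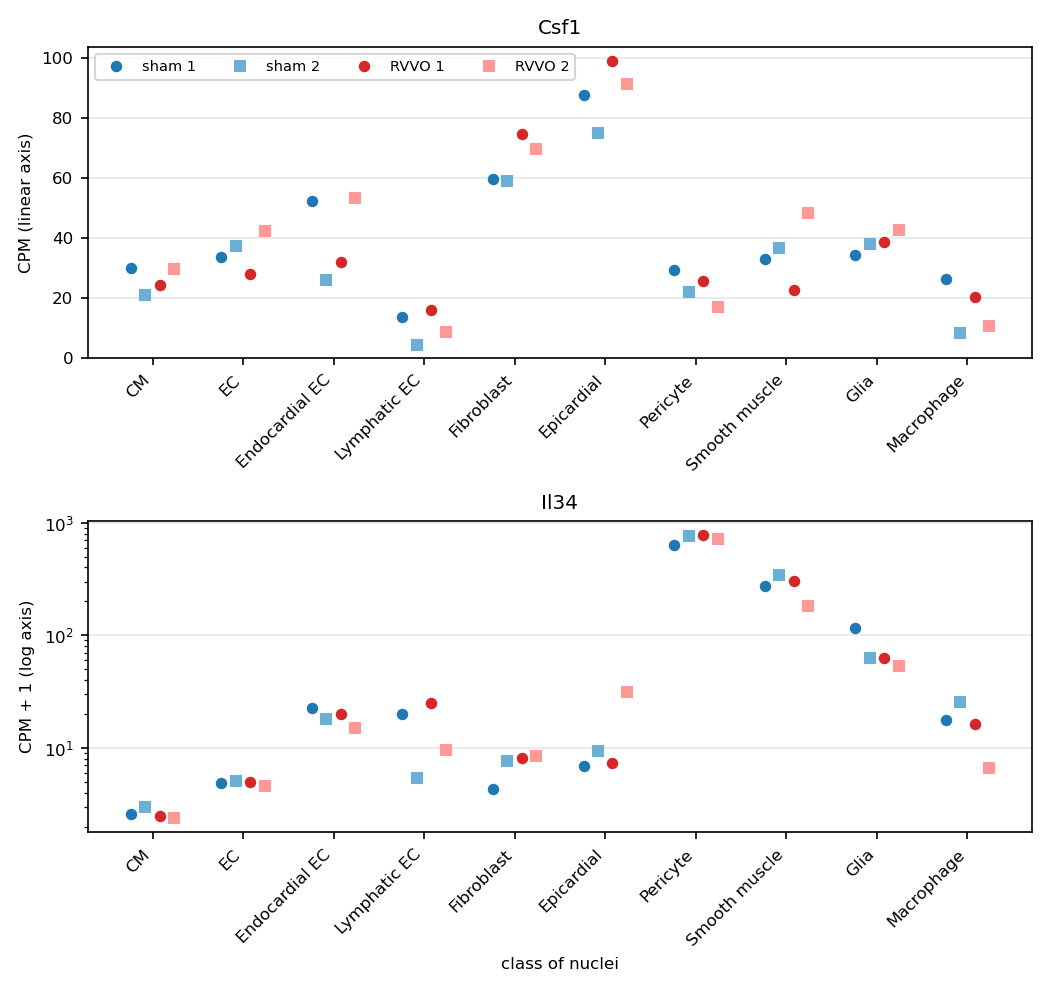
Levels of Csf1 (CPM, linear axis) and Il34 (CPM + 1, log axis) in the 10 classes with at least 20 nuclei in every library. Each point is the sum over the nuclei of a class in 1 library, blue for sham and red for RVVO. Csf1 is highest in epicardial cells and fibroblasts, and Il34 is highest in pericytes, at 634 to 768 CPM, and smooth muscle.

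Csf1r, at chr18:61100598-61132149 (GRCm38), had its highest level in macrophages, at 248, 240, 246 and 319 CPM. At 1000 UMIs, 22.8% to 29.4% of macrophage nuclei had a Csf1r UMI. The other myeloid nuclei, of which there were 12 to 27 a library, had 153, 129, 109 and 225 CPM. Macrophages held 34.5%, 50.7%, 18.6% and 30.5% of the Csf1r UMIs. Unnamed nuclei held 47.0%, 13.5%, 64.9% and 42.7%, with 1273 of their 1620 Csf1r UMIs in the clusters that scored highest for macrophages. Those clusters also scored for other classes, as described for Il34. The genes most like Csf1r over the 40 sums were Fyb (r = 0.91), Rbm47, Synj1, Hmha1 and Bank1 (0.85 to 0.88).

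Among the 10 classes the next after macrophages was epicardial, at 43.9, 55.5, 46.3 and 64.3 CPM of Csf1r. Macrophages were higher in 4 of 4 libraries, by a mean log2 ratio of 2.31 (exact sign-flip permutation test, p = 0.13). Per nucleus, epicardial Csf1r was 26.2%, 26.3%, 23.4% and 21.5% of the macrophage level in the same library. The summed UMIs of the 11 macrophage markers were there 6.32%, 2.59%, 3.08% and 3.67% of the macrophage level. In EC the Csf1r level was 1.31% to 2.55% and the markers 2.30% to 3.34% of the macrophage level, and in CM 1.77% to 2.67% and 1.58% to 2.11%. In epicardial nuclei the Csf1r percent was thus above the marker percent in every library. B cells had a like Csf1r mean, 52.6 CPM from 21 UMIs, and 9.97% to 34.4% of the macrophage level per nucleus. Their markers were at 7.20% to 27.7%, below the Csf1r percent in every library. The same order held in the other myeloid nuclei, so it was not particular to epicardial cells.

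Epicardial, macrophage, fibroblast, CM and EC nuclei with a Csf1r UMI at 1000 UMIs were then read for macrophage markers. Of 1135 epicardial nuclei, 57 (5.02%) had a Csf1r UMI, 5, 15, 6 and 31 in the 4 libraries. 11 of the 57 had a UMI of any of the 11 macrophage markers (19.3%), and 339 of the 345 Csf1r nuclei of macrophages had one (98.3%), where the naming of the class used these markers. Epicardial nuclei with no Csf1r UMI had a marker UMI in 30.3%, 13.5%, 25% and 21.2% of cases. In fibroblasts, CM and EC 0.607%, 0.358% and 0.637% of nuclei had a Csf1r UMI. Of their nuclei with a Csf1r UMI, 6 of 34 in fibroblasts (17.6%), 4 of 43 in CM (9.30%) and 19 of 63 in EC (30.2%) had a marker UMI. At this depth, most nuclei with a Csf1r UMI had no marker UMI in epicardial cells and in each of these classes. This trait was therefore not particular to epicardial cells. The part of free RNA and of mixed nuclei in this Csf1r was not tested.

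**Figure D2:**
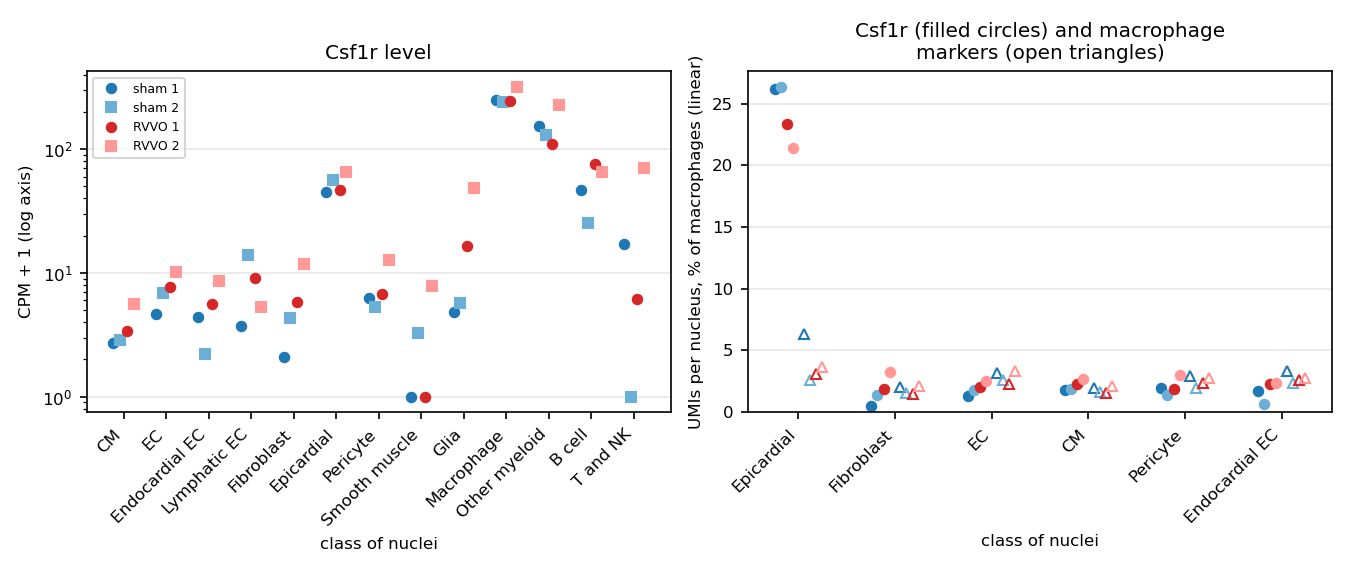
Left, Csf1r level (CPM + 1, log axis) in 13 classes, 1 point per library. Right, UMIs per nucleus as a percent of the macrophage level of the same library, for Csf1r (filled circles) and the 11 macrophage markers summed (open triangles), blue for sham and red for RVVO. Epicardial Csf1r is at 21.5% to 26.3% of the macrophage level, and the markers are below 7% in the 6 classes shown.

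Ciita was highest in the antigen-presenting classes. Macrophages had 99.9, 150, 39.4 and 92.1 CPM, and B cells 115, 60.9, 37.8 and 74.2 CPM from 27 UMIs in all. The other myeloid nuclei had 95.4, 32.2, 370 and 106 CPM from 31 UMIs. Both EC classes had less Ciita than macrophages and more than CM in the sham libraries. EC had 19.97, 18.4, 2.94 and 9.35 CPM, and endocardial EC had 30.6, 18.4, 3.27 and 14.6 CPM. CM had 4.93, 2.45, 2.28 and 3.50 CPM, and fibroblasts, pericytes and epicardial cells had means of 3.05, 2.83 and 2.33 CPM. Of the 4 EC clusters, cluster 8, led by Kirrel3, Rasa4 and Kcnc2, had Ciita at 41.4, 42.9, 9.41 and 23.0 CPM, and cluster 11, led by St8sia6 and Sema3g, at 29.4, 40.9, 3.77 and 13.2 CPM. Cluster 1 had 15.96, 9.19, 1.36 and 5.76 CPM, and cluster 3 had 16.7, 7.97, 0 and 3.58 CPM. Clusters 8 and 11 were thus above the other two in every library, but in RVVO 1 clusters 8, 11, 1 and 3 held only 9, 1, 4 and 0 Ciita UMIs. The genes most like Ciita over the 40 sums were Epsti1 (r = 0.85), then P2ry6, Fcgr2b, Adgre1 and Cx3cr1 (0.81 to 0.84).

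The sum of H2-Aa, H2-Ab1 and H2-Eb1 had its highest means in the same classes as Ciita. The order of these classes differed from that of Ciita in sham 1, sham 2 and RVVO 1. The other myeloid nuclei had 439, 805, 675 and 463 CPM from 23, 25, 31 and 35 UMIs, above both macrophages and B cells in every library. Their exact Poisson intervals overlapped those of macrophages in sham 1 (278 to 658 against 273 to 356 CPM) and RVVO 2 (323 to 644 against 283 to 342 CPM). They did not in sham 2 and RVVO 1. At 1000 UMIs, 20.8%, 27.3%, 33.3% and 25.9% of these nuclei had a class II UMI, a share below that of macrophages in sham 1 and RVVO 2. Macrophages had 312, 259, 160 and 312 CPM, and B cells 207, 256, 322 and 257 CPM. B cells were above macrophages in 1 of 4 libraries, RVVO 1, and the mean log2 ratio of B cells to macrophages was 0.03 (exact sign-flip permutation test, p = 1). The ratio was -0.29 without RVVO 1 and -2.16 on sums thinned to 1000 UMIs a nucleus (exact sign-flip permutation test, p = 0.13). In RVVO 1 none of the 12 thinned B cell nuclei had a class II UMI. The 1 CPM added to each level therefore set the ratio of RVVO 1 and weighs on the -2.16. At that depth 15.4%, 20.7%, 0% and 22.7% of B cell nuclei had a class II UMI, fewer than of macrophages in 4 of 4 libraries, and the exact binomial interval of the 0% reached 26.5%. The B cell sums rest on 9 to 52 UMIs a library, and the exact Poisson intervals of the B cells in sham 1 and RVVO 1 were 94.9 to 394 and 187 to 515 CPM. Per nucleus, the summed macrophage markers were 7.20% to 27.7% of the macrophage level in B cells. The part of macrophage RNA in the class II and Ciita of B cells was not tested. T and NK cells had 16.1 to 61.4 CPM. H2-Aa, H2-Ab1 and H2-Eb1 taken singly had macrophage means of 96.4, 84.5 and 80.0 CPM and B cell means of 79.4, 72.1 and 109 CPM.

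Below these classes, class II UMIs were found in every named class. Endocardial EC had 70.3, 128, 22.9 and 64.7 CPM for the class II sum, and EC 60.7, 88.7, 23.96 and 77.6 CPM. Pericytes, fibroblasts and CM had means of 41.1, 29.6 and 15.1 CPM. Per nucleus, the class II sum was 11.3% to 24.8% of the macrophage level in EC, 17.8% to 59.9% in endocardial EC and 9.61% to 15.2% in CM. The macrophage markers were 2.30% to 3.34%, 2.40% to 3.36% and 1.58% to 2.11% of that level in these classes. The part of free RNA from other antigen-presenting nuclei in these low levels was not tested. At 1000 UMIs, 2.48% to 7.73% of EC nuclei had a class II UMI, against 0.94% to 3.30% of CM and 16.0% to 26.4% of macrophages.

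The nuclei named as macrophages held a minority of class II UMIs, 12.8%, 13.8%, 12.0% and 15.3% in the 4 libraries. EC held 30.5%, 34.5%, 10.8% and 11.3%, beside 4064, 4240, 1604 and 1559 EC nuclei. CM held 9.35%, 13.3%, 18.8% and 20.9%, and were 19.7%, 20.9%, 34.6% and 39.2% of the nuclei kept. An unnamed cluster that scored highest for CM held 1340, 1129, 150 and 204 nuclei, mostly of sham. With stricter filters CM were 31.4%, 28.6%, 37.1% and 41.2% of nuclei, so the CM shares also depend on naming. B cells held 0.51% to 1.81% and unnamed nuclei 14.3% to 37.7%. Of the 2100 class II UMIs of unnamed nuclei, 1229 lay in the 6 clusters that scored highest for macrophages, against 1068 in the named macrophages. Those clusters also scored for CM, EC, fibroblasts or pericytes, so the macrophage share depends on how they are named. Cd74, at chr18:60803848-60812652 (GRCm38), had a like spread, with macrophages at 257, 345, 161 and 269 CPM, B cells at 236 ± 92.6 (SD, n = 4), other myeloid nuclei at 585 ± 82.9, EC at 49.1 ± 16.8 and CM at 13.3 ± 7.97 CPM. RVVO minus sham in the share of class II UMIs held by macrophages was 0.33 percentage points (exact permutation test of 2 against 2 libraries, p = 1, where the smallest p possible is 0.33). It was -0.16 without sham 1, -1.34 without RVVO 2 and -0.35 with stricter filters, so no direction was shown.

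**Figure D3:**
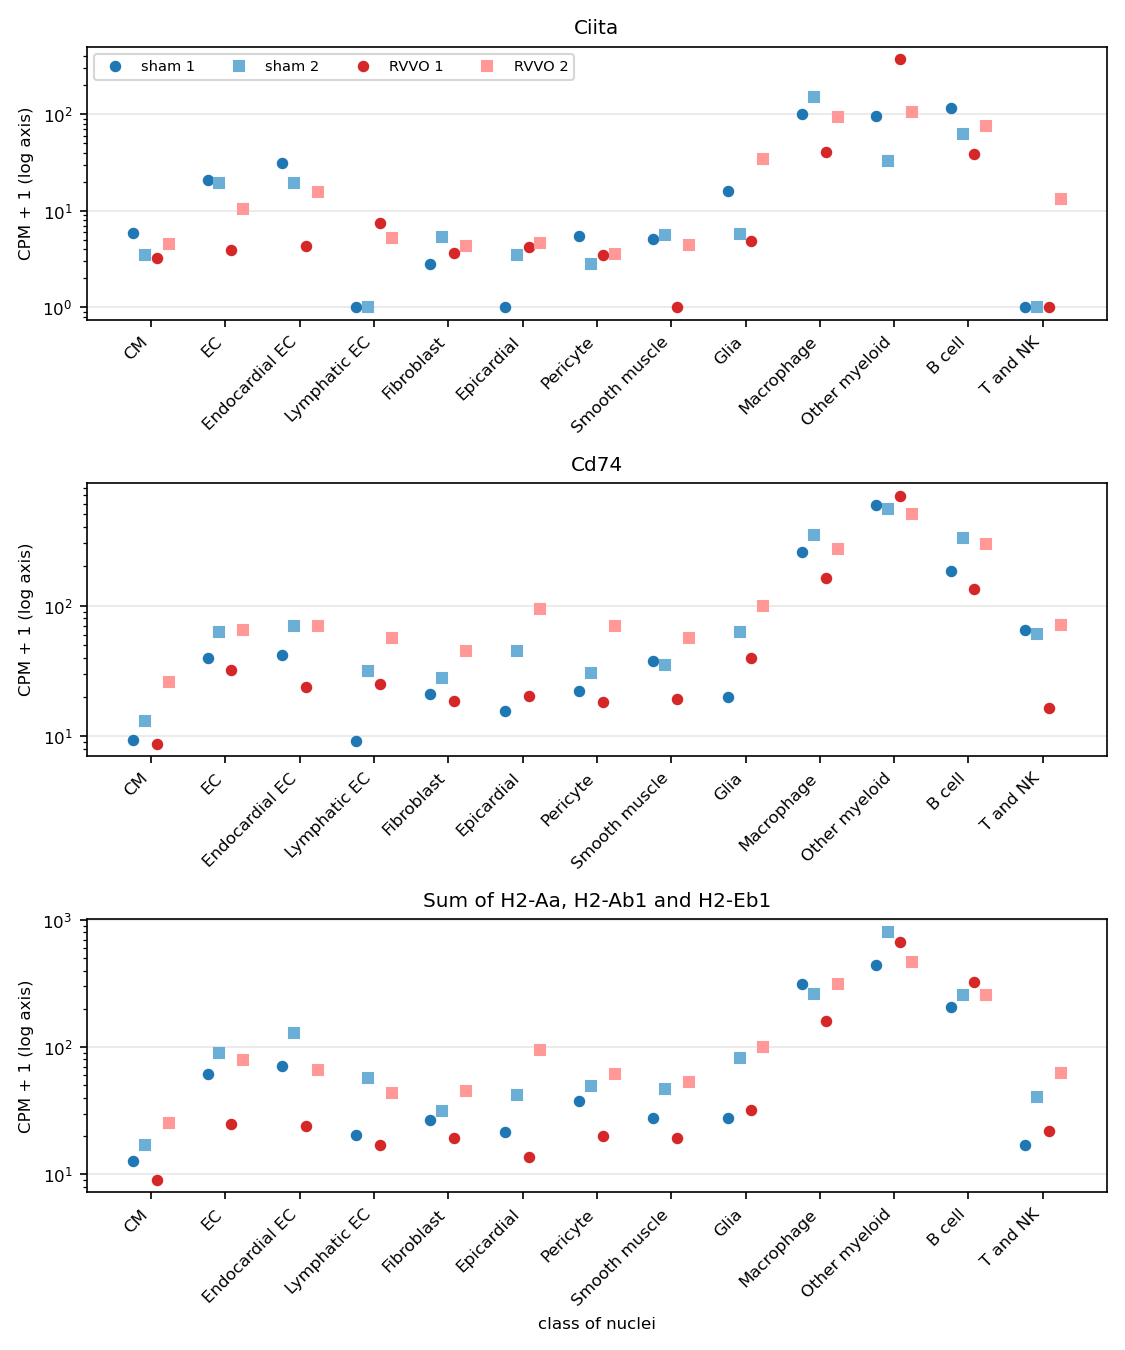
Levels (CPM + 1, log axes) of Ciita, Cd74 and the sum of the 3 class II chains in 13 classes, 1 point per library, blue for sham and red for RVVO. Other myeloid nuclei, macrophages and B cells have the highest means for all 3 measures, and RVVO 1 has the lowest Ciita in macrophages, EC and endocardial EC.

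**Figure D4:**
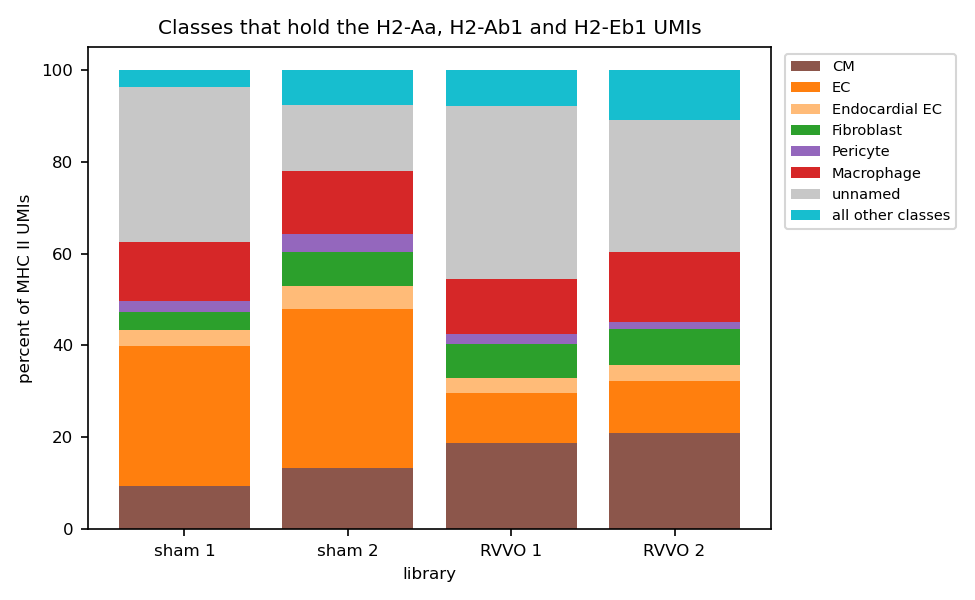
Percent of all class II UMIs (H2-Aa, H2-Ab1 and H2-Eb1) held by each class in each library, as stacked bars that add up to 100. Macrophages hold 12.0% to 15.3%, and EC hold more in the sham than in the RVVO libraries. EC were also more of the nuclei kept in sham, 35.5% and 33.1%, than in RVVO, 20.9% and 13.8%.

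Class II UMIs were found in a part of the macrophage nuclei. After thinning to 1000 UMIs, 22.4%, 24.1%, 16.0% and 26.4% of macrophage nuclei had a class II UMI, and 4.14%, 5.42%, 2.50% and 7.66% had at least 2. RVVO minus sham was -2.08 percentage points (exact permutation test, p = 1), and 3.12 without RVVO 1. If all macrophage nuclei of a library had the same mean, Poisson sampling would give a class II UMI in 25.4%, 27.4%, 16.9% and 31.5%. The shares found were a little lower, so by themselves they show little about differences between nuclei. Macrophage nuclei with no UMI of the resident markers Lyve1, Folr2, Timd4, Cbr2 and Gas6 were class II positive in 24.6%, 28.2%, 19.8% and 26.0% of cases. Those with at least 1 were positive in 18.7%, 16.1%, 9.46% and 27.4%, so the order held in 3 of 4 libraries and was turned in RVVO 2. Exact binomial intervals of the pairs overlap in each library: in sham 2, where the gap was widest, they were 22.6% to 34.2% and 10.1% to 23.8%. The clusters behind the class differed by library, since 1 held 78.1% of the sham 1 macrophages, another 66.0% of those of sham 2, and 1 more held 63.5% and 66.8% of those of RVVO 1 and RVVO 2. A dividing cluster led by Top2a had 189 CPM of class II over all libraries, and a cluster of 38 nuclei led by Saa3, Prg4 and Alox15, 30 of them from RVVO 2, had 71.1 CPM.

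The sham and RVVO libraries were compared for the 8 genes in each of the 10 classes. No gene and class pair passed, among 55 tested, with edgeR's quasi-likelihood test and Benjamini-Hochberg adjustment over all genes of a class. 6 had an unadjusted p under 0.05, where 2.31% to 8.77% of all genes had one in the 10 classes. DESeq2 called 1 pair, Ciita in EC, where it called 93 genes in all. Over all genes, 0.103% were called in macrophages, 0.177% in EC, 0.0709% in endocardial EC, 0.0813% in pericytes, 0.1% in fibroblasts, 0.0477% in CM, 0.104% in epicardial cells, 0.104% in lymphatic EC, 0.121% in glia and 0.180% in smooth muscle.

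The 6 pairs were Ciita in EC, endocardial EC and macrophages, H2-Ab1 in EC and endocardial EC, and Csf1r in fibroblasts. Ciita in EC was at 19.97 and 18.4 CPM in sham and 2.94 and 9.35 CPM in RVVO, without overlap, a log2 difference of -1.74 ± 0.40 (SE; edgeR adjusted p = 0.25). DESeq2 gave an adjusted p of 0.017 for it. In endocardial EC the difference was -1.48 ± 0.60 and in macrophages -0.87 ± 0.36 (adjusted p = 0.999 and 0.76), again without overlap. A fit without RVVO 1 or RVVO 2 has 1 RVVO library, which is assumed to vary like the sham libraries, the only source of the spread. Only the size of the differences is therefore given for these fits. RVVO 1 had the lowest Ciita in all 3 classes. The EC difference ran from -2.74 without RVVO 2 to -1.13 without RVVO 1, the endocardial difference from -2.87 to -0.81 and the macrophage difference from -1.66 to -0.47. Within the 4 EC clusters Ciita was lower in both RVVO libraries than in both sham libraries. These clusters are parts of the same EC nuclei and add no independent comparison. The share of all genes whose groups did not overlap was not counted.

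H2-Ab1, a class II beta chain, went the same way in both EC classes. It was at 30.2 and 39.2 CPM in the EC of sham and 8.62 and 25.4 CPM in those of RVVO, a log2 difference of -1.11 ± 0.39 (edgeR adjusted p = 0.65). H2-Aa and H2-Eb1 in EC had differences of -0.35 ± 0.46 and -0.28 ± 0.47, and their groups overlapped. The EC difference of H2-Ab1 was -0.53 without RVVO 1 and -2.04 without RVVO 2. In endocardial EC all 3 chains had lower means in RVVO, H2-Ab1 by a difference of -1.33 ± 0.48, H2-Aa of -1.02 ± 0.47 and H2-Eb1 of -1.20 ± 0.61 (edgeR adjusted p = 0.999 for each), with overlap between groups for H2-Eb1. There H2-Ab1 was at -0.70 without sham 2 and -2.02 without RVVO 2. Csf1r in fibroblasts was at 1.10 and 3.33 CPM in sham and 4.77 and 10.9 CPM in RVVO, a difference of 1.67 ± 0.57 from 94 UMIs (edgeR adjusted p = 0.999). It was 2.75 without sham 2 and 0.98 without RVVO 2. This was not particular to fibroblasts: Csf1r, at low levels, was also higher in both RVVO libraries in CM, EC, endocardial EC, pericytes and glia. Its groups overlapped in macrophages, epicardial cells, smooth muscle and lymphatic EC. In endocardial EC, pericytes and glia its counts were too low to be tested.

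The other pairs had an unadjusted p of 0.05 or more. Among them Csf1r differed by 0.89 ± 0.39 in CM and 0.67 ± 0.32 in EC, and Il34 by -1.11 ± 0.53 in macrophages. Il34 in pericytes had a difference of 0.09 ± 0.18, and Csf1 in fibroblasts of 0.26 ± 0.14 with no overlap between groups. Csf1r in macrophages differed by 0.22 ± 0.20 and Cd74 by -0.46 ± 0.26. With a library left out, these ran from 0.02 (without RVVO 2) to 0.36 (without RVVO 1) for Csf1r and from -0.89 (without RVVO 2) to -0.19 (without RVVO 1) for Cd74. The class II sum of macrophages had an RVVO minus sham difference of -0.35 on the log2 (CPM + 1) scale (exact permutation test, p = 0.667). Without RVVO 1 the difference was 0.13. Class II was also lowest in RVVO 1 in EC, endocardial EC, CM, fibroblasts, pericytes and epicardial cells. Relative to all nuclei that are not macrophages, the class II level of macrophages was higher by 2.96, 2.46, 3.21 and 2.60 on the log2 scale.

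**Figure D5:**
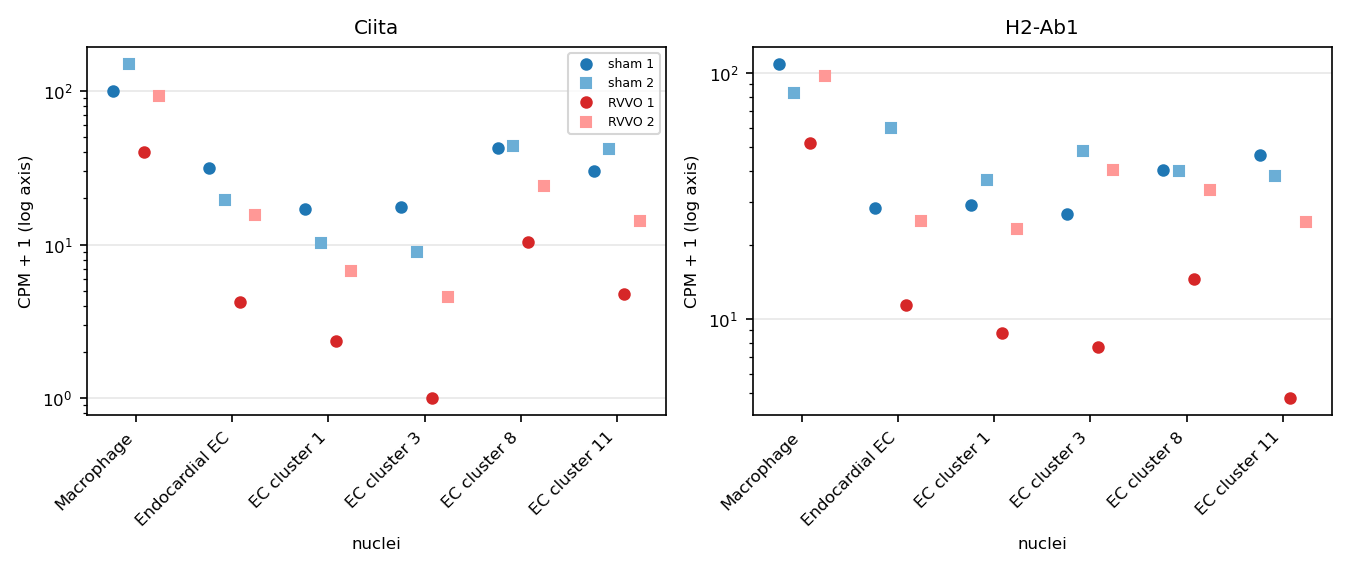
Ciita and H2-Ab1 levels (CPM + 1, log axes) in macrophages, endocardial EC and each of the 4 EC clusters, 1 point per library, blue for sham and red for RVVO. Ciita is lower in both RVVO libraries than in both sham libraries in each group shown, and RVVO 1 is the lowest in each. The 4 EC clusters are parts of the same class, and the share of all genes without overlap was not counted.

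The other genes of these pathways were read from lists. None of the 43 tested pairs of gene and class passed in the list of other growth factors and receptors, where Kitl, the ligand of KIT, was at 321, 264, 227 and 200 CPM over all nuclei, followed by Csf2ra (19.4 CPM on average) and Flt3l (16.1). None of 107 passed among the control and signalling genes of CSF1R, led in macrophages by Runx1 (1327 CPM), Inpp5d (1010) and Maf (967). None of 86 passed in the MHC II pathway, with March1 (614 CPM), a ligase for class II, Ctss (278), which trims the invariant chain, and Creb1 (223) highest in macrophages. None of 31 co-stimulation pairs passed. The pairs with an unadjusted p under 0.05 in edgeR, higher and lower in RVVO, were 4 and 3 in the first list, 9 and 2 in the second, 2 and 1 in the third and 2 and 8 in the fourth, and DESeq2 called 0, 0, 0 and 1. Over all genes the unadjusted share was 2.31% to 8.77% by class, and the same gene in several classes of a library is not independent. Cd86 and Cd83 averaged 278 and 79.4 CPM in macrophages, and Cd274, which encodes PD-L1, was at 59.7, 38.4, 3.81 and 30.5 CPM.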

How the data were processed

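Nuclei of flash-frozen RVs were profiled with 10x 3′ v3 chemistry. The authors deposited raw UMI counts per gene and barcode for each library. The matrix headers name cellranger 5.0.0, and the submitters' processing notes name Cell Ranger 3.0.1, STAR, Seurat 3.0.2, GRCm38 and mm10. Here, a barcode was dropped below 200 detected genes or from 10% mitochondrial UMIs upwards. Doublets were scored with the Scrublet of scanpy 1.11.5, whose automatic threshold marked 34.9%, 8.52%, 0.0115% and 0%, so the highest scores were removed at 0.8% per 1000 barcodes. Leiden clusters (leidenalg 0.10.2) were formed without the 8 genes and named from marker lists, with thresholds set after the clusters were seen.

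UMI counts were summed per library and class and tested with edgeR 4.0.16 (quasi-likelihood, TMM, filterByExpr, Benjamini-Hochberg over all genes of a class, threshold 0.05), checked on simulated counts. DESeq2 1.42.0 was an alternative. Shares of nuclei were taken after thinning to 1000 UMIs. Intervals are exact at 95%. Class ratios used log2 (CPM + 1). The named genes were the 8 members, any listed gene that passed, otherwise the 3 highest of a list, and the 5 most alike by Pearson r. The members and lists were chosen with earlier results of these data known. The Adipocyte class, with no nuclei in sham 1, was not tested. To see whether the library numbers mark pairs, the difference between the sham libraries was correlated over genes with that between the RVVO libraries. Both differences were taken in the order of the numbers. The correlation ran from -0.078 to 0.27 over classes, so the numbers were not taken to pair the libraries. It does not measure how alike the levels of the libraries were. The result of 1 listed gene is not reported here.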

Additional observations from a re-analysis of the deposited data

Results flagged for a closer look

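Il34 had differences of opposite sign in 3 classes outside the mural cells, each without overlap between groups and none past the test. In CM it was at 1.57 and 1.97 CPM in sham and 1.47 and 1.39 CPM in RVVO, a log2 difference of -0.39. In macrophages the difference was -1.11, from 16.7 and 24.3 CPM to 15.2 and 5.67 CPM. In fibroblasts it was 0.46, from 3.29 and 6.67 CPM to 7.15 and 7.52 CPM. The unadjusted p-values of edgeR were 0.28 in CM, 0.065 in macrophages and 0.26 in fibroblasts, and the difference between classes was not tested. The macrophage values rest on 8 to 26 UMIs a library. The 3 pairs were picked because their groups did not overlap, in opposite directions. With 2 against 2 libraries, any pair without overlap reaches the smallest p of an exact permutation test, 0.33. The share of all genes without overlap was not counted.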

How the results depend on the processing

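The class with the highest mean Csf1, Il34 and Csf1r over the libraries stayed first in every alternative tried. For Csf1, epicardial cells were not above fibroblasts in every library when nuclei were named singly. No pair of member and class passed with the replicate number as a block (0 called), 1 passed with DESeq2 (Ciita in EC), 2 without a filter on low counts (Ciita in EC and Csf1r in fibroblasts), and 0 to 6 when a library was left out. The 6, without RVVO 2, included Ciita in EC, endocardial EC and macrophages, from a fit with 1 RVVO library whose spread was taken from sham alone. The block changed no member's call. The log2 ratio of class II in B cells to macrophages turned from 0.03 to -0.27 with no doublet removal, -0.24 with stricter filters and -0.47 with nuclei named singly. It was -2.16 after thinning, where RVVO 1 had no B cell class II UMI and the 1 CPM added to each level set its ratio. It ran from -0.29 to 0.24 when a library was left out. The difference in class II UMIs held by macrophages turned to -0.35 points with stricter filters and ran from -1.34 to 1.99 with a library left out. The class II level in macrophages ran from -0.83 to 0.13 with a library left out. It turned to 0.12 per 100 nuclei and 0.19 relative to other nuclei, both chosen after seeing the data. The difference in class II nuclei turned to 2.55 without thinning and 0.30 at 2 or more UMIs, and ran from -7.27 to 3.12. Il34 in pericytes turned to -0.12 with no doublet removal and -0.098 with nuclei named singly, and ran from -0.028 to 0.20 with a library left out (-0.028 without sham 1, -0.026 without RVVO 1). Csf1r in macrophages turned to -0.059 with nuclei named singly. The causes were not tested. With 2 libraries a group, small differences were not detectable. A log2 difference of -1.74, for Ciita in EC, did not pass edgeR's adjusted test either, so the lack of a call does not exclude a large difference. Sex and surgery were not separable.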

Other observations

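The MHC class I genes, whose products show peptides to CD8+ T cells, were read as a list beside class II. Of 69 pairs of gene and class, none passed edgeR's test after adjustment, 32 had an unadjusted p under 0.05 and were lower in RVVO, 0 were higher, and DESeq2 called 6. Over all genes, 2.31% to 8.77% had an unadjusted p under 0.05 by class. The median log2 difference of the list lay between -1.21 (CM) and -0.51 (lymphatic EC). H2-K1, a class I heavy chain, was at 335, 322, 137 and 321 CPM over all nuclei, so RVVO 1 was low and RVVO 2 lay near the sham libraries. B2m, the light chain, had the same order, at 333, 276, 108 and 259 CPM. Both levels mix the classes, and EC were 35.5%, 33.1%, 20.9% and 13.8% of the nuclei kept. They therefore do not compare like nuclei between libraries. Nlrc5, the class I counterpart of Ciita, was at 181, 145, 39.9 and 68.3 CPM in EC, a log2 difference of -1.66 ± 0.24 (edgeR adjusted p = 0.070). The classes of a library share its nuclei preparation, so these pairs are not independent of each other.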
